A study of Mus musculus with 2 samples.

Results

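The regions described are 5589 ETS2 peaks that lay far from genes and had no ETS1 peak nearby. They were taken from the 28816 peaks of the ETS2 list on chromosomes 2, 3, 8, 9 and 11 to 18, out of 63556 ETS2 peaks and 140851 peaks of both lists in all. A peak was kept when its centre lay more than 10 kb from either end of any annotated gene and no ETS1 peak centre lay within 2.5 kb. A peak deep inside a long gene therefore counts as distal, as does one between genes. Chromatin came from WT aortic endothelial cells of mice, which line the main artery and were grown with 20% fetal bovine serum, heparin and an endothelial growth supplement. An antibody to ETS1 or one to ETS2, 10 µg each, was used on chromatin of these cells, and the product was sequenced as single-end reads. Strain, sex, age and number of animals are not given in the sources used here. There was 1 library per antibody, so intervals and p-values below cover counting error within these lists, treat neighbouring peaks as independent and say nothing about replicate cultures. The identity of the cells could not be checked, because no RNA was measured.

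ETS1 and ETS2 are transcription factors that share an ETS domain, which recognises DNA with a GGAA core, and both are phosphorylated downstream of RAS. Much of the DNA that endothelial transcription factors contact lies in enhancers, which can sit in introns or between genes far from the promoter they act on. A peak at such a place is a candidate regulatory element, and its target gene need not be the nearest one.

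The absence of an ETS1 peak was part of the selection and is not a finding. It means that no ETS1 peak was called there, not that no ETS1 tags were counted. Of 10792 distal ETS2 peaks on these chromosomes, 51.8% had no ETS1 centre within 2.5 kb, and the other 5203, called shared distal peaks below, are the group of comparison. The limit cut through a continuous range. The closest excluded peak lay 2496 bp from an ETS1 centre, inside Rbpms, and the closest member 2501 bp, inside Mecom. With 1 kb in place of 2.5 kb there would have been 7079 such peaks, and with 10 kb 2964. At the gene limit, the closest member lay 10002 bp from an end of Scaf11 and the closest excluded peak 9999 bp from an end of Hormad2.

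Sequences were at hand for those members that overlap a RefSeq promoter window, which spans 250 bases before to 50 after an annotated transcript start (GRCm38.p6 assembly, of which mm10 is the browser's name). Since every member is over 10 kb from a gene end, these starts lie inside genes, protein-coding or noncoding. The 6 sequences below are shown because they are the only kind of member whose bases can be read here, and they range from several GGAA cores to none. They were chosen after their bases were seen. Each is the part of the peak in the 250 bases before the start, which leaves out some of the Pde1b, Mbnl1 and P2ry14 peaks. The sequences are written 5′ to 3′ on the strand of the gene, with every GGAA and its reverse complement TTCC in capitals. They belong to Pde1b, a cyclic nucleotide phosphodiesterase (chr15:103514804-103514976, plus strand), Mbnl1, a splicing regulator (chr3:60500929-60501043, plus strand), the noncoding gene Gm36894 (chr12:112255348-112255534, plus strand), P2ry14, a receptor for UDP-sugars that lies within Med12l (chr3:59130763-59130930, minus strand), Wiz, a zinc finger protein (chr17:32364464-32364650, minus strand), and Pld1, a phospholipase that makes phosphatidic acid (chr3:27983924-27984110, plus strand).
Pde1b: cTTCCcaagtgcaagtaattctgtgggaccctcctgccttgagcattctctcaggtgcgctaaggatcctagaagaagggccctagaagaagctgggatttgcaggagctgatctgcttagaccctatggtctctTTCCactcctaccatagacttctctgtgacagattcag
Mbnl1: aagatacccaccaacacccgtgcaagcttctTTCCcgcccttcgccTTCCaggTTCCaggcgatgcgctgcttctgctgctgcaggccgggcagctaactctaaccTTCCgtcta
Gm36894: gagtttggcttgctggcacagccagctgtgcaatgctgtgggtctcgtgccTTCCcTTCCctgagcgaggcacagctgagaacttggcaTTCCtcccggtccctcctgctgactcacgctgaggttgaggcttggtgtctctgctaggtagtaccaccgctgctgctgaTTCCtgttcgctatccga
P2ry14: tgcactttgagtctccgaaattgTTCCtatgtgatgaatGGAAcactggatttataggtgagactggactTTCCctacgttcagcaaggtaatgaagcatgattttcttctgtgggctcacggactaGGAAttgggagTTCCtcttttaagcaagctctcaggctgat
Wiz: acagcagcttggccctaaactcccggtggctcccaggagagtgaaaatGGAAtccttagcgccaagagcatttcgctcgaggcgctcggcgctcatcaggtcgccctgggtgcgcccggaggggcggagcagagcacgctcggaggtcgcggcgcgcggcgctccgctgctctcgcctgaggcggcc
Pld1: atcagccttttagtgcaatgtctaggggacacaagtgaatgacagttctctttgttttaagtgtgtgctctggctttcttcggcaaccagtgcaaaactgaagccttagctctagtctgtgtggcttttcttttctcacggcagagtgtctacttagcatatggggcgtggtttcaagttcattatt

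Pde1b carried 2 cores, Mbnl1 4, Gm36894 4, P2ry14 5, Wiz 1 and Pld1 0. Gm36894 also held 1 copy of TGANTCA, the letters that AP-1 factors recognise, and the other 5 sequences held 0. In promoter windows, motifs were counted over the whole window, so a match may lie outside the peak. The peak covered only 10 bases of the Slc25a21 window and 19 of the Prr5 window. The same Tlcd4 peak overlapped more than 1 window. The core is too short to set a window apart. GGAA, read on both strands, was in 23 of the 24 promoter windows that members overlap (95.8%, 95% Wilson interval 79.8 to 99.3) and in 95.98% of all 32817 RefSeq windows of the same length. The longer form CCGGAA was in 0 of the 24 windows, which allows a share of up to 12.5%, beside 6 of 51 windows overlapped by shared distal peaks (11.8%, 5.50 to 23.4) and 14.9% of all windows. AGGAAG, another form that holds the core, was in 9 of 24 (37.5%, 21.2 to 57.3), beside 35.4% of all windows. TGANTCA was in 3 of 24 (12.5%, 4.34 to 31), beside 7.81%. ACAAAG, the letters SOX factors recognise, was in 9 of 24 (37.5%, 21.2 to 57.3), beside 13.7% (6.81 to 25.7) of the windows of shared distal peaks and 18.7% of all windows. For the core, its longer form AGGAAG and the AP-1 letters the share over all windows lay inside the members' interval. For CCGGAA it lay above the limit and for the SOX letters below the interval, among 9 motif forms counted in 24 windows, with no test made.

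Internal starts were rare among the members. Of 5217 members on the 11 chromosomes with promoter windows, 53 (1.02%, 0.778 to 1.33) had a centre within 1 kb of a start. Among 4870 shared distal peaks 118 (2.42%, 2.03 to 2.89) did, an odds ratio of 0.413 (0.298 to 0.573, Fisher's exact test, two-sided, p = 4.36e-08). Members nearest to a start lay 12 bp from one of Sipa1l1, which regulates RAP GTPases, 14 bp from one of Tfdp2, a partner of E2F factors, 29 bp from one of Kcnip3, a calcium-binding protein, and 32 bp from one of Prkcd, a protein kinase C. Of ETS1-only distal peaks, chosen by the mirrored rule in the ETS1 list, 64 of 17422 (0.367%, 0.288 to 0.469) lay within 1 kb of a start.

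The members stood lower in the ETS2 list than the shared distal peaks. Heights of single peaks were not used here, since the score is 1 in every row, but the order of the file carries information on height. The ETS2 file runs through 127 successive blocks, each sorted by chromosome and position, as ties in a sort by height would be. Each block is called a step here, with 0 for the fullest step, which holds 12101 peaks, and higher steps earlier in the file. Suppose step 0 is the threshold of 30 tags in the file header and each step is 1 tag. The tags of all peaks then add up to 98.2% of the tags in peaks that the header states (98.6% for the ETS1 list). Most of that sum is the threshold itself, counted for every peak, so the match says little about the tags in a step. Steps below 0 would also lie under the threshold. That reading is inferred from the order and the header, and only the order is used below.

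Of the members, 3456 (61.8%, 60.6 to 63.1) stood at step 0 or below, against 2470 (47.5%, 46.1 to 48.8) of the shared distal peaks. At step 5 or above the shares were 5.06% (4.52 to 5.67) and 15.1% (14.2 to 16.1), and the shared peaks had the higher share on 12 of 12 chromosomes. At step 10 or above there were 27 members (0.483%) and 292 shared peaks (5.61%). Other peaks without a partner were low too, so the low place is not particular to the members. Of ETS2 peaks near genes with no ETS1 centre within 2.5 kb, 57.99% stood at step 0 or below and 0.865% at step 10 or above, and of ETS1-only distal peaks, on the steps of their own list, 56.8% and 0.638%. The median place in the deposited order was 67.5% for members and 51.5% for shared distal peaks, a difference of 16.01 percentage points (permutation test, two-sided, p = 1e-05, the smallest that 100000 resamples can give). Giving tied peaks of a step the same place left a difference of 16.6 points. Among peaks in the first 50% of the ETS2 order the difference was 3.06 points (30.2% and 27.1%, permutation test, p = 1e-05). Read the other way, members made up 58.3% of distal ETS2 peaks at step 0 or below, 44.7% at steps 3 to 4, 34.04% at steps 5 to 9 and 8.46% (5.88 to 12.03) at step 10 or above. A distal ETS2 peak was thus less often without an ETS1 peak the higher it stood.

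**Figure D1:**
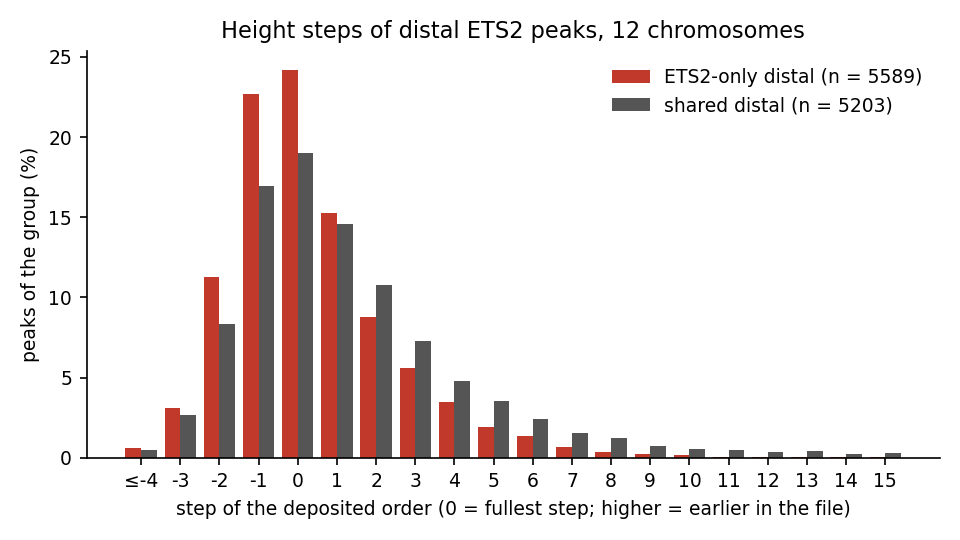
Share of peaks (vertical axis, %) at each step of the deposited ETS2 order (horizontal axis, 0 the fullest step, higher steps earlier in the file, steps above 15 not drawn) for 5589 ETS2-only distal and 5203 shared distal peaks. Members gather at and below step 0 (61.8%), and shared peaks reach further to the right.

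The highest members lay at loci on several chromosomes. The first in the file (step 17) lay 27011 bp from an end of Cst3, which encodes the protease inhibitor cystatin C (chr2:148902430-148902616). The next lay 26931 bp from Rnpc3, a component of the minor spliceosome, at step 15. Another member at step 15 and a member at step 14 belong to the run near Dynlt1b described below. Inside genes, the highest were in Thsd4, which encodes a matrix protein of microfibrils (chr9:60237683-60237869, step 14), Tll1, a metalloprotease of the tolloid family (chr8:64139114-64139300, step 13), Ets1 itself (chr9:32696075-32696261, step 13), Tcf4, a basic helix-loop-helix factor, at step 13, and Meis1, a homeobox factor (chr11:19003214-19003400, step 12). The member at chr3:35225017-35225203 (step 13) lay 528934 bp from the nearest protein-coding gene, Atp11b, a lipid flippase. Among the first 50 members, 31 lay inside a gene, 27 had another ETS2 peak within 10 kb, and 25 had their nearest ETS1 centre over 10 kb away. Over all 5589 members these shares were 62.75%, 40.3% and 53.0%.

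Ets1 holds 7 members in its body of 121580 bp (chr9:32636241-32757820). The highest, named above, had a second member 480 bp from it at step 3. These lay 59927 and 59447 bp from the lower-coordinate end, and their nearest ETS1 centres were 10011 and 10491 bp away. The other 5 stood at steps 2, 0, 0, -2 and -3. The gene also holds 7 shared distal peaks and 4 ETS1-only distal peaks, so ETS1 peaks were absent around the members and not from the gene. Of the related factors, Erg, which maintains endothelial identity, held 2 members at steps -1 and -2 beside 4 shared and 12 ETS1-only distal peaks. Fli1, another ETS factor of endothelial and blood cells, held 2 members at steps -1 and 3, with 0 shared and 1 ETS1-only distal peak. Ets2 is shorter than 20 kb and cannot hold a member.

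Members lay inside genes more often than the sequence over 10 kb from any gene end does, and somewhat less often than shared distal peaks. Of the 5589, 3507 (62.75%, 61.5 to 64.0) lay between the ends of a gene, 3246 of them in a protein-coding gene, and 2082 (37.2%, 35.99 to 38.5) lay outside. Genes make up 43.2% of the sequence that is more than 10 kb from any gene end, with 397.0 Mb inside and 522.6 Mb outside them on these chromosomes. This gives 8.83 members per Mb inside genes and 3.98 outside, a ratio of 2.22. The same ratio was 2.83 for shared distal peaks (8.95 and 3.16 per Mb) and 2.36 for ETS1-only distal peaks (30.2 and 12.8 per Mb). Stretches within 2.5 kb of an ETS1 centre, where a member cannot lie, were not taken out of this sequence. Their part in the ratios was not tested. Of shared distal peaks 68.3% (67.0 to 69.5) lay in a gene, an odds ratio of 0.782 for members against shared peaks (0.722 to 0.847, Fisher's exact test, two-sided, p = 1.57e-09), with the shared share higher on 10 of 12 chromosomes. On chromosome 13 members had 52.7% and shared peaks 49.9%, and on chromosome 16 the shares were 62.1% and 59.1%. Within the same chromosome and step the odds ratio was 0.725 (0.667 to 0.789, Mantel-Haenszel). The direction depends on how sharing is defined. With overlap of at least 1 bp in place of the distance of 2.5 kb, the odds ratio turned to 1.23 (1.11 to 1.36), and with 1 kb the call ended (0.935, p = 0.120, Fisher's exact test), as it did in the first 50% of the ETS2 order (0.956, p = 0.511).

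**Figure D2:**
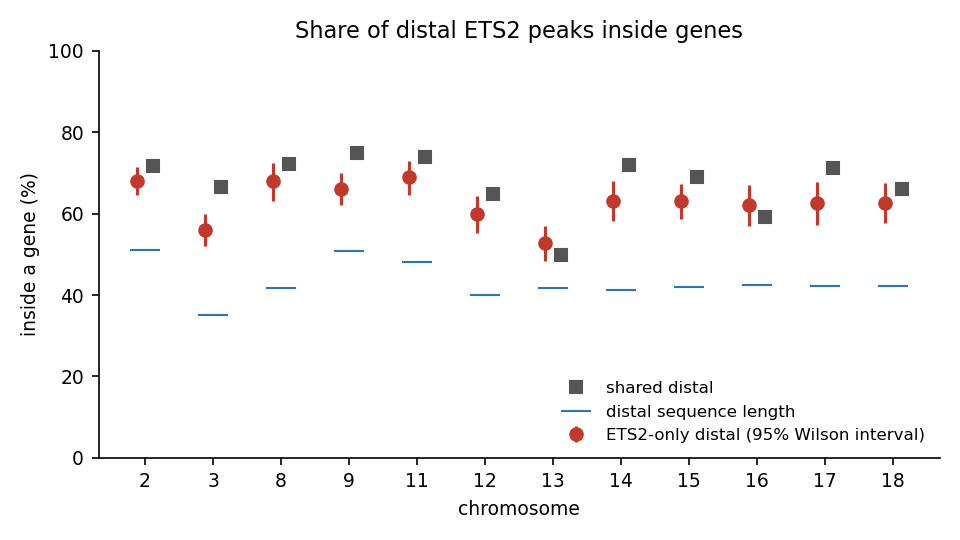
Share of peaks inside a gene (vertical axis, %) on each of the 12 chromosomes for ETS2-only distal peaks (circles, bars are 95% Wilson intervals) and shared distal peaks (squares). Dashes give the share of all distal sequence that lies inside genes. The squares are higher on 10 chromosomes, and members on all 12 stand above the dashes, from 52.7% on chromosome 13 to 68.9% on chromosome 11.

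Distance from ETS1 peaks and position in genes moved together among the members. The nearest ETS1 centre lay at a median of 10829 bp, with 50% of members between 5264 and 24212 bp, and 648 members (11.6%) had none within 50 kb. Of the 1291 members with an ETS1 centre between 2.5 and 5 kb away, 72.6% (70.1 to 74.9) lay in a gene. The share was 63.2% (60.8 to 65.5) at 10 to 25 kb and 36.3% (32.7 to 40.04) beyond 50 kb. Height did not follow the same path. The median step was 0 in each of these classes, and the share at step 5 or above ranged from 4.17% to 5.55%. The distance chose the members, so these values are a description. The number of members per Mb of distal sequence ran from 4.67 on chromosome 8 to 7.71 on chromosome 9.

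Most members stood alone. The nearest other ETS2 peak lay at a median of 14383 bp, against 3509 bp for shared distal peaks, and 2250 members (40.3%, 38.98 to 41.5) had another ETS2 peak within 10 kb, against 69.98% (68.7 to 71.2). The odds ratio was 0.289 (0.267 to 0.313, Fisher's exact test, two-sided, p = 3.1e-214), and the shared share was higher on 12 of 12 chromosomes. It was 0.320 (0.295 to 0.348, Mantel-Haenszel) within chromosome and step. Among the members the share with a neighbour fell with distance from ETS1, from 56.7% at 2.5 to 5 kb to 18.98% beyond 50 kb. The same distance split members from shared peaks, so the odds ratio describes that split. The part of distance in it was not tested. ETS1-only distal peaks had another peak of their own, denser list within 10 kb in 59.9% of cases. When members within 10 kb of each other were chained, they fell into 4725 runs, and 4053 members (72.5%) formed a run of their own.

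**Figure D3:**
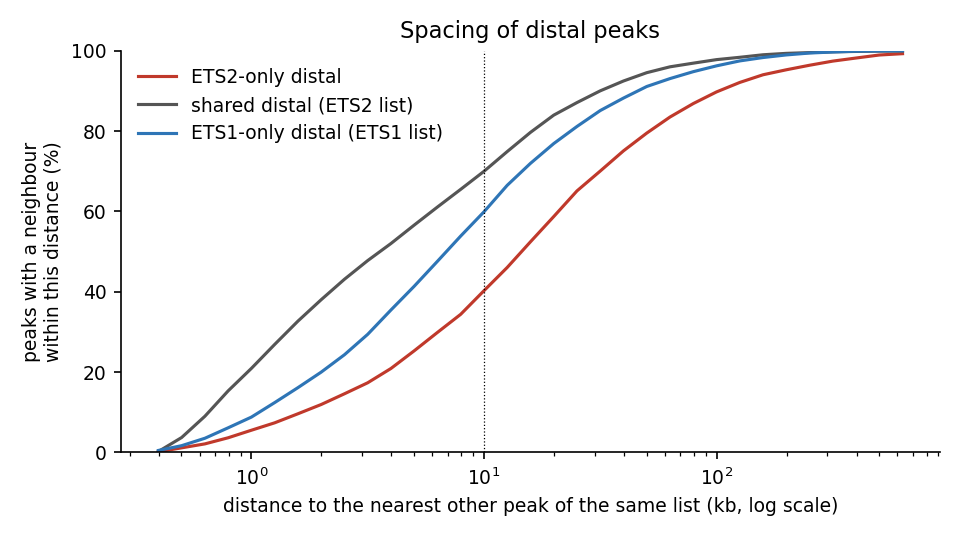
Share of peaks (vertical axis, %) that have another peak of the same list within a given distance (horizontal axis, kb, log scale) for ETS2-only distal, shared distal and ETS1-only distal peaks. At 10 kb (dotted line) the curves stand at 40.3%, 69.98% and 59.9%, and the members' curve is the lowest there.

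The other 1536 (27.5%) lay in runs of 2 or more, 140 of the runs held 3 or more and 10 held 5 or more. The largest, 9 members within 12157 bp (chr17:6465307-6477463, median step 8, highest step 15), lay between Dynlt1b, a dynein light chain, and the predicted gene Gm2808. The span held 0 ETS1 peaks. From 150 kb below to 150 kb above its start the lists held 28 ETS2 and 0 ETS1 peaks, whereas from 250 to 500 kb below it they held 25 ETS2 and 57 ETS1 peaks. The annotation places 4 Dynlt1 genes within 500 kb, so reads of near-identical copies may not be told apart there, and the part of this in the run was not tested. A run of 7 lay in Rin2, a RAB5 exchange factor (chr2:145783424-145803997, steps -2 to 1, 0 ETS1 peaks in the span), and one of 7 in Tcf4 (chr18:69582452-69595942, median step 2, 1 ETS1 peak). Slc22a4, an organic cation transporter, held 6 within 8393 bp (chr11:54002349-54010741). A run of 5 lay 111805 bp from Snx19, a sorting nexin (chr9:30578853-30583821). Without the members in runs of 4 or more, 38.6% (37.3 to 39.9) of the other 5438 had an ETS2 peak within 10 kb.

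Of the 3507 members in genes, 3246 lay in protein-coding ones. Only a protein-coding gene over 20 kb can hold a member, and 1582 of 5611 such genes on these chromosomes did (28.2%). That share rose with length, from 8.96% of genes of 20 to 50 kb to 33.4% at 50 to 100 kb, 54.7% at 100 to 200 kb and 73.1% above 200 kb. A single member was held by 890 genes, 5 or more by 143 and 10 or more by 15. ETS1 peaks were in the same genes. Of the 1582, 1525 (96.4%) held an ETS1 peak somewhere in the body, beside 86.6% of all 5611. The genes holding a member were longer, with a median of 108028 bp against 39224 bp for the others. The shares with an ETS1 peak were not matched for length, so their difference is not read as a result about the members.

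The gene with most members was Rbms3, which encodes an RNA-binding protein, with 17 over 1057168 bp. Tcf4 held 16, Mecom, an oncogenic zinc finger factor of blood stem cells, 15, and Mast4, a kinase, 15. Celf2, a splicing regulator, held 14, Lrmda 13, Rad51b, of homologous recombination, 12, and Pde4d, a cAMP phosphodiesterase, 12. Per length these differ widely. Pde4d held 0.922 members per 100 kb and Rbms3 1.61, but Tcf4 held 4.64, Megf10, an engulfment receptor, 6.69 and Rin2 8.63. The mix with ETS1 also differed between genes of like counts. Megf10 held 11 members, 0 shared and 1 ETS1-only distal peak, and Rin2 held 10, 5 and 2. Pde4d held 12, 8 and 47, and Cdh13, encoding T-cadherin, 10, 11 and 48. In Megf10 the 11 members stood at steps -3 to 3, so no high peak was among them.

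**Figure D4:**
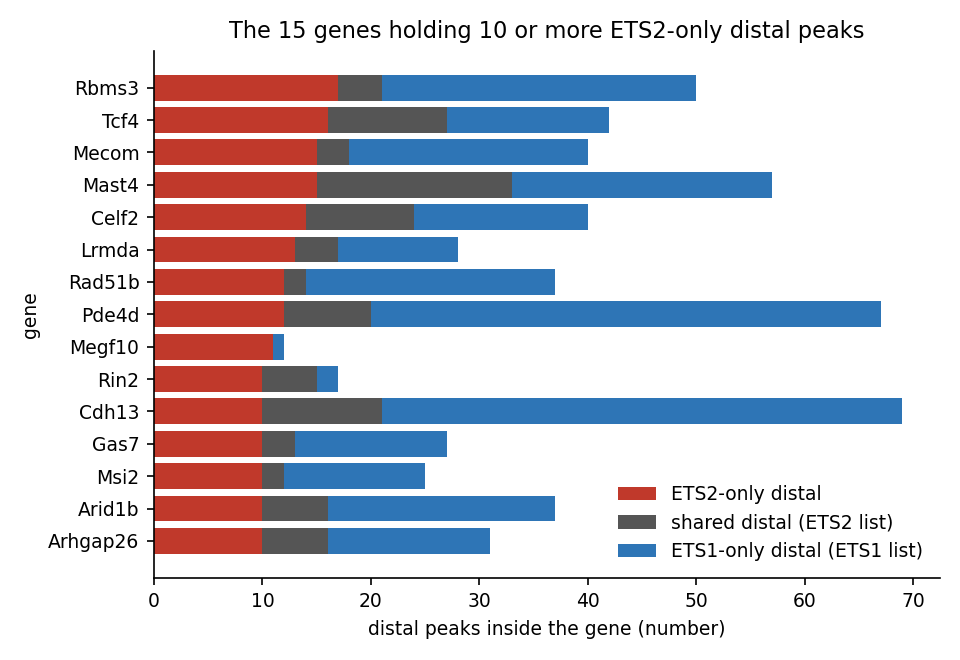
Number of distal peaks (horizontal axis) inside each of the 15 genes that hold 10 or more ETS2-only distal peaks, stacked as ETS2-only, shared and ETS1-only distal peaks. Megf10 and Rin2 have few ETS1-only peaks (1 and 2), and Pde4d and Cdh13 have 47 and 48.

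**Figure D5:**
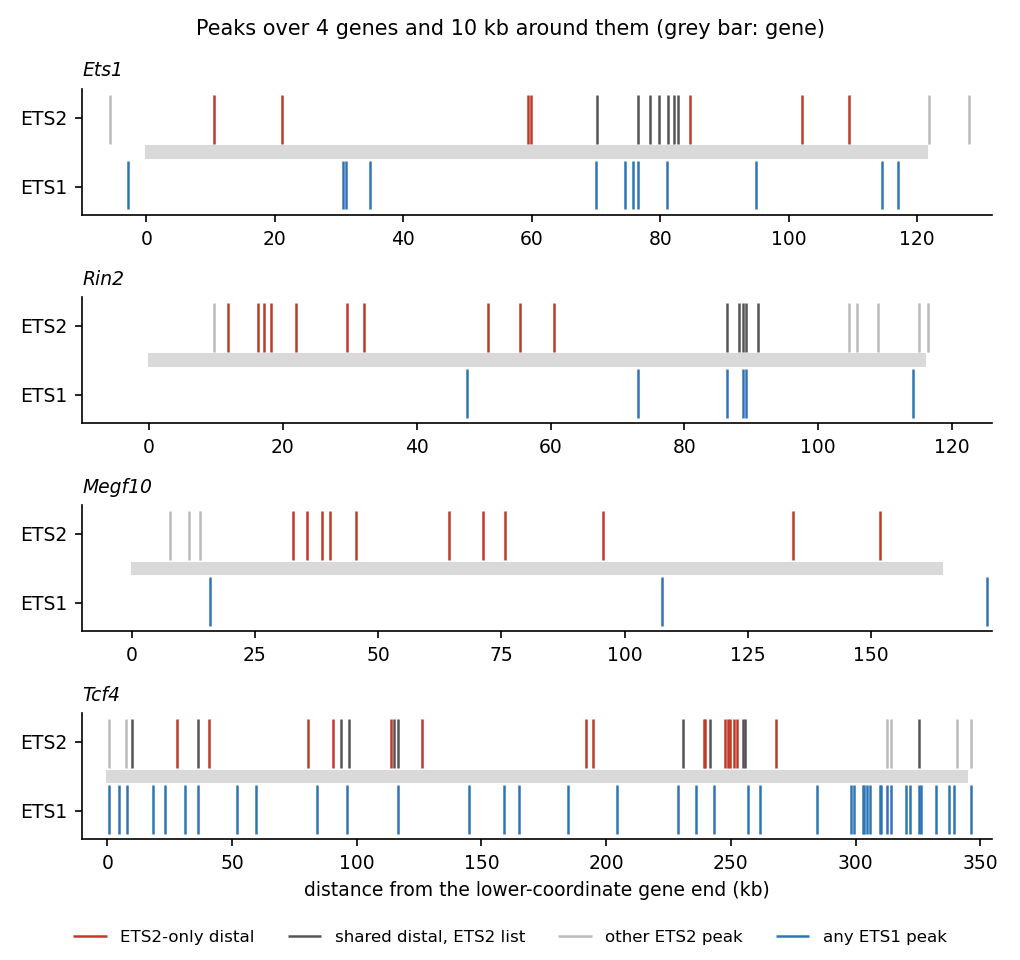
Peaks over Ets1, Rin2, Megf10 and Tcf4 and 10 kb around them, as distance from the lower-coordinate gene end in kb, with ETS2 peaks above the gene bar and ETS1 peaks below. In Rin2 the run of 7 ETS2-only distal peaks has 0 ETS1 peaks beneath it, and in Ets1 the members lie on both sides of the 7 shared peaks.

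The list of ETS factors and endothelial transcription factors, so not of endothelial genes alone, had a member in 12 of 17 genes over 20 kb (70.6%). The median was 1 member per gene, beside 0 over all 5611. At the shares of their length classes given above, 8.27 of these 17 would hold one. After Tcf4 (16) and Ets1 (7) came Meis2, a homeobox factor, with 6 and Runx1, a factor of blood-forming endothelium, with 3. In Meis2, 4 of the 6 lay within 7409 bp (chr2:116048979-116056387), at steps 1, 6, 0 and 0. Elf1 and Elf2, 2 further ETS factors, held 0 members, beside 6 and 3 ETS1-only distal peaks. Shared distal peaks were in 11 of the 17 genes, and any ETS1 peak in all 17. How many of all 5611 genes hold a shared distal peak was not counted. The counts of genes with a shared distal peak, here and in the lists below, therefore have no background beside them.

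Genes of endothelial identity and VEGF-TIE signalling were at the level of other genes of their length, with 6 of 16 holding a member (37.5%, median 0), where their length classes would give 6.01. Ptprm, a phosphatase at cell junctions, held 6 members. Angpt1, the ligand of the TIE2 receptor, held 3 at steps -2, 1 and 0, which were 44787 to 79906 bp from an ETS1 centre. Nrp1, a VEGF co-receptor, held 3 at steps -1, 2 and 2. The junction gene Pecam1 held 2. Cdh5, encoding VE-cadherin, and Flt4, encoding VEGF receptor 3, held 0. Both are shorter than 50 kb, in the length class where 8.96% of genes hold a member. In 3 of the 16 genes a shared distal peak was present.

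In the Notch, TGF-beta and BMP list 12 of 23 genes held a member (52.2%, median 1), beside 7.92 from length classes. Ltbp1, which binds latent TGF-beta, held 9, Maml2 and Maml3, co-activators of Notch, 8 and 6, and Smad2, a TGF-beta transducer, 3. Smad2 and the BMP receptor genes Bmpr1a and Bmpr1b, with 3 members each, held 0 shared distal peaks. Smad3, by contrast, held 0 members and 18 shared distal peaks, and the receptor gene Notch2 0 and 8. Bmpr1a, Bmpr1b and Smad3 were chosen after their values were seen. Notch4, of 24258 bp, held 0 members. Shared distal peaks were in 11 of the 23 genes.

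Matrix, protease and integrin genes held members in 13 of 24 (54.2%, median 1), beside 8.62 from length classes. Fbn1, which encodes fibrillin of elastic microfibrils, held 6, and Col4a2, a basement membrane collagen, Lamb1, a laminin chain, and Itgb1, an integrin subunit, 2 each. Col4a2 also held 13 shared distal peaks. Lama5 and Sparc, of basement membrane and matrix, held 0 members and 5 and 2 shared peaks. In 14 of the 24 genes a shared distal peak was present.

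Genes of the actin cytoskeleton, its GTPases and focal adhesions held members most often among the lists, in 21 of 25 (84%, median 2), with 79 members in all, and their length classes would give 13.5. Their median length was 191124 bp. Arhgap26, a GTPase-activating protein, held 10 members, Dock4, an exchange factor for RAC, 9, Palld, an actin-bundling protein, 9 and Lpp, of focal adhesions, 7. Lpp also held 62 ETS1-only distal peaks. Myh9, nonmuscle myosin heavy chain, held 0 members and 25 shared distal peaks, and the GTPase gene Rhoa held 0 of either. In 19 of the 25 genes a shared distal peak was present too.

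Of the RAS pathway, which leads to phosphorylation of both factors, 12 of 18 genes held a member (66.7%, median 1), beside 7.60 from length classes. Counts were low. Grb2, an adaptor, and Nf1, a RAS inhibitor, held 3 each, and Map2k1, the kinase MEK1, and Spred1, a RAF inhibitor, 2 each. Sos1, a RAS exchange factor, held 0. Shared distal peaks were in 13 of the 18 genes. Genes of inflammation held members in 3 of 16 (18.8%, median 0), beside 4.21 from length classes, with 2 in Stat5b and 1 each in Nfkb1 and Il1rap. Rel and Nfkbiz held 0. In 5 of these 16 genes a shared distal peak was present.

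The remaining lists were named for axon guidance and synaptic adhesion or for markers of other cell types. Whether their genes are active in these endothelial cells was not measured. Axon guidance and synaptic adhesion genes, with a median length of 928594 bp, held members in 19 of 25 (76%, median 2), and their length classes would give 18.1. Cdh13 held 10, Sema5a, a semaphorin, 8, and Robo1, a Slit receptor, and Sema6d, a semaphorin, 7 each, while Slit3 and Unc5d held 0. Shared distal peaks were in 6 of these 25 genes. Smooth muscle and fibroblast markers held members in 6 of 10, beside 3.58, with 8 in Ebf1, 3 in Myocd, a co-activator of smooth muscle genes, 3 in Itga8 and 2 in Kcnma1. Smtn and Pdgfrb held 0. Shared distal peaks were in 3 of these 10 genes. Leukocyte markers held members in 3 of 9, beside 3.55, with 1 each in Fyb and Mrc1 and the 8 of Ebf1, which is on both lists. Csf1r and Adgre1 held 0. A shared distal peak was in 1 of these 9 genes. No test was made of any list, and a gene that holds a member is not shown to be controlled from it.

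Outside protein-coding genes lay 2343 members, and 1217 of the 12002 protein-coding genes on these chromosomes were nearest to at least 1 of them. The genes below were chosen after their counts were seen, and the length of sequence around each gene was not taken into account. Myc, the growth regulator, was the nearest protein-coding gene of 17 members, at 57965 to 706844 bp, beside 15 shared and 62 ETS1-only distal peaks. They include a run of 5 at chr15:62284617-62295791 with steps up to 10. Adgrl2, an adhesion receptor, was nearest to 14 members and 1 shared distal peak, and Zfp608 to 14 and 3. Parp8 was nearest to 9 members, 0 shared and 3 ETS1-only distal peaks. Snx19 and Trps1 were nearest to 11 members each and St3gal1 to 10. Of vascular regulators, Runx1 was nearest to 10 members, at 81131 to 214357 bp, and Gata6, a GATA factor, to 9. Ednra, the endothelin receptor of smooth muscle, was nearest to 8 members, and Ets1 to 7 more, at 16383 to 428765 bp. Counting those inside long genes too, 552 members (9.88%, 9.12 to 10.7) lay more than 100 kb from any gene end, against 3.77% (3.28 to 4.32) of shared distal peaks. The farthest member outside genes lay 576194 bp from a gene end, at step -2.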

How the data were processed

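Per the file headers, peaks were called by the authors with HOMER findPeaks in its factor style, on tag directories whose names hold mm10, with a false discovery rate of 0.01, a threshold of 30 tags and no control directory in the command. The submitters' processing notes list HOMER, Bowtie2 and CASAVA 1.8 as tools, and both mm9 and mm10 as builds. The total was 143778022 tags for ETS1 and 134607908 for ETS2. The deposited score is 1 in every row and was not used. Depth of single peaks is not given, and an input library was not analysed here. Coordinates are mm10, 1-based. Peak widths are 177 bp (ETS1) and 187 bp (ETS2).

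Gene ends came from a RefSeq table of GRCm38.p6 and start sites from RefSeq promoter windows, where those of chromosome 18 were not used here. A genome sequence was not used, so the planned motif counts over all members were not made. Shares carry 95% Wilson intervals. Groups were compared with Fisher's exact test on peaks or a permutation test of medians (100000 resamples), with scipy 1.17.1, statsmodels 0.14.6 and Python 3.11.15. The scripts were tested on simulated data. Distal sequence was counted between the outermost genes or peaks of each chromosome. Steps, internal starts and the stratified fit were added after the files were seen.

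The members and the 10 gene lists (345 entries, 345 matched by symbol) were chosen with earlier results of these data known. Genes named are Ets1, Ets2, Erg and Fli1, the 10 holding most members, up to 4 per list with most members and up to 2 with none, and those at the 5 largest runs, the first 10 members and the distance limits. Ties between runs were ordered by shorter span. Others were chosen after their values were seen. A gene that the rule names is not reported here.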

Additional observations from a re-analysis of the deposited data

How the results depend on the processing

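The members' lower place in the deposited order and their lower share with an ETS2 neighbour kept direction and call in the 24 and 26 alternatives run for each, those added after seeing the data included, but the difference in place (16.01 points) was 3.06 in the first 50% of the ETS2 order, and the neighbour odds (0.289) were 0.473 with overlap as the limit and 0.178 after merging. No alternative uses other cultures, and 1 library per antibody limits each result. The number of members (5589) was 2964 with 10 kb to an ETS1 centre, 8761 with overlap as the limit, 3632 with 20 kb to a gene end and 1761 in the first 50% of the ETS2 order. The odds of lying in a gene, against shared peaks, were 0.935 with 1 kb and 0.956 in the first 50% of the ETS2 order, where the call ended, and reversed to 1.23 with overlap. These settings also change which peaks form the comparison group, and the cause was not tested. The share of members in genes was 64.9%, 59.8% and 54.9% with 1, 5 and 10 kb, 66.3% with overlap, 64.3% in the first 50% of the ETS2 order and 64.6% against the first 50% of the ETS1 order. The share with an ETS2 neighbour was 45.7%, 35.3% and 29.9% with 1, 5 and 10 kb to ETS1, 51.2% with overlap, 43.97% and 37.4% with 5 and 20 kb to a gene end, 42.3% with protein-coding ends only, 25.3% in the first 50% of the ETS2 order, 45.3% against the first 50% of the ETS1 order and 29.3% after merging. The share of long genes holding a member was 31.9%, 22.6% and 15.2% with 1, 5 and 10 kb, 35.3% with overlap, 35.7% and 18.1% with 5 and 20 kb to a gene end, 31.9% with protein-coding ends only, 13.03% in the first 50% of the ETS2 order and 32.9% against the first 50% of the ETS1 order. Leaving out each chromosome in turn gave 4896 to 5265 members, 61.99% to 63.8% in genes, odds of 0.761 to 0.805 and 0.280 to 0.300 for genes and neighbours, a difference in place of 15.0 to 16.6 points, 39.5% to 40.9% with a neighbour and 27.8% to 28.6% of long genes.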

Other observations

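The 7 autosomes that the rule leaves out give the same comparison in peaks it did not use. There, 10768 distal ETS2 peaks had no ETS1 centre within 2.5 kb and 4369 did. Of the first, 65.8% (64.9 to 66.7) lay in a gene, against 71.2% (69.9 to 72.6) of the second, an odds ratio of 0.777 (0.719 to 0.838). Another ETS2 peak lay within 10 kb of 69.8% and 90.75%, an odds ratio of 0.236 (0.211 to 0.263). At step 5 or above stood 8.88% and 19.1%. The lists differ in density on these chromosomes, and the part of this was not tested.

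Position along the gene was even. The stretch over 10 kb from both ends of the gene was read from the start of transcription. Of 2460 members in the body of 1 protein-coding gene of known strand, 25.4% (23.7 to 27.2) lay in the first 25% of that stretch. In the last 25% lay 24.4% (22.8 to 26.2). For 2516 shared distal peaks the shares were 27.3% (25.6 to 29.1) and 22.6% (21.02 to 24.3).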
